A study of Mus musculus with 8 samples.

Results

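The clustered protocadherin genes Pcdha, Pcdhb and Pcdhg lie side by side on mouse chromosome 18, and the members described here are all cytosines read within that interval. Of the 2130064 CpGs (autosomes 1 to 19 and sex chromosomes) that had at least 10 reads in every sample, 2009 lie in the interval, from position 36920315 to position 37842894 of mm10, and all 2009 are in CpG context. A cytosine was assigned to a promoter when it lay between 1 kb before and 100 bases after the RefSeq start of a gene whose symbol begins with Pcdha, Pcdhb or Pcdhg, and otherwise to that gene's variable exon. By this rule 146 cytosines lie in promoters, 1488 in variable exons and 375 elsewhere in the interval.

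The samples are labelled as type A spermatogonia, and by the study's methods they come from F1 C3H/HeN mice at postnatal day 6. The question was whether gestational arsenic exposure left a mark on DNA methylation at this stage. Dams of the arsenic group were given sodium arsenite (85 ppm) in their tap water between gestational days 8 and 18, and dams of the control group were given tap water alone. Each group has 4 samples, and each sample is DNA from 8 testes of 4 mice, whose cells were separated magnetically with an antibody against Itga6. Reduced representation bisulfite sequencing (RRBS) cuts DNA at CCGG sites before bisulfite conversion. Methylated cytosines resist conversion and keep their C, and the methylation level is the share of reads with a C. A sample is therefore a pool of animals, and a level is an average over all cells of that pool.

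Clustered protocadherins are cell surface proteins that bind their own kind on neighbouring cells and give single neurons an identity. In the Pcdha and Pcdhg clusters, each of a row of large variable exons has its own promoter and is spliced to a shared set of constant exons, whereas each Pcdhb gene is a single exon. In neurons, promoter choice goes with DNA methylation of the promoter and exon and with looping by CTCF and cohesin. The C genes at the cluster ends, Pcdhac1, Pcdhac2, Pcdhgc3, Pcdhgc4 and Pcdhgc5, are regulated differently from the other genes.

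The 8 samples held 96428439 to 133406260 reads on CpGs, and the median coverage of a protocadherin cytosine was 33 to 42 reads (control samples) or 32 to 48 reads (arsenic samples). Even counts of reads with a T made up 58.6 to 62.05% of the nonzero values in each sample, and 59.1 to 60.6% over all CpGs. Where several counts come from the same fragment, coverage overstates the number of independent fragments and the q of a single cytosine is too small. How far this holds here was not tested beyond halving the counts, which is given with the single-cytosine tests. As a check of the cell label, promoters were read that male germ cells are known to keep unmethylated. Of 13 maternally imprinted promoters 8 were covered, with an average level of 51.0 to 54.5% in the control and 47.7 to 54.4% in the arsenic samples. The lowest of these 8 was Inpp5f at 15.2%, and the highest was Plagl1 at 61.99%. Of 12 promoters of germ line genes 11 were covered, with an average of 81.7 to 85.3% in the control and 81.3 to 82.9% in the arsenic samples, from Tdrd1 at 60.2% to Dazl at 94.9%. No marker promoter was at or near 0, so these levels go against the state known for the labelled cell type. The study checked the label by other means. Its real-time PCR gave higher Itga6 and Gfra1 expression in these cells than in its prospermatogonia fraction of fetal testes. Its methylation profiles also clustered by stage. The groups overlapped in both lists, and what part other cells have in the protocadherin levels was not tested.

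RRBS reached most variable exons and few promoters. The annotation holds 58 clustered protocadherin genes, 14 of Pcdha, 22 of Pcdhb and 22 of Pcdhg, the last with Pcdhgb8, which RefSeq lists as a transcribed pseudogene. At least 3 cytosines were covered in 49 variable exons, 12 of Pcdha, 16 of Pcdhb and 21 of Pcdhg, and in 13 promoters, 4 of Pcdha, 3 of Pcdhb and 6 of Pcdhg. Pcdhgb5 had 1 exon cytosine. The exons of Pcdha6, Pcdha9, Pcdhb4, Pcdhb6, Pcdhb8, Pcdhb12, Pcdhb19 and Pcdhb21 had none, and their median number of CCGG sites was 2, against 6 over all 58.

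The interval as a whole was methylated at an intermediate level in every sample. The average level of the 2009 cytosines was 43.1, 42.5, 44.6 and 43.1% in control samples 1 to 4 and 44.5, 43.3, 43.5 and 43.97% in arsenic samples 1 to 4. The groups overlapped, and the arsenic mean of 43.8% ± 0.556 (SD, n = 4) lay 0.495 points above the control mean of 43.3% ± 0.882. This difference was 0.235 points without control sample 2, 0.256 points without arsenic sample 1 and 0.918 points without control sample 3. Over all CpGs of the series the average was 54.1 to 54.3% in the control and 53.6 to 54.0% in the arsenic samples, and the arsenic mean fell by 0.311 points against the control mean. The average level of the protocadherin cytosines thus differed by less than the spread between samples.

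Promoter cytosines were less methylated than variable exon cytosines in every sample of the 3 clusters. Without the C genes this order was kept in Pcdha only on average, and control sample 3 and arsenic sample 1 had the reverse order. Variable exons of Pcdha averaged 35.4, 37.1, 37.8 and 35.8% in the control and 38.4, 36.2, 37.4 and 37.9% in the arsenic samples. Those of Pcdhg averaged 35.4, 34.3, 36.6 and 34.7% in the control and 36.5, 35.4, 35.0 and 35.7% in the arsenic samples. These 2 clusters overlapped in level, whereas the single exons of Pcdhb averaged 61.9 to 64.6% in the control and 62.9 to 63.7% in the arsenic samples, above every sample of the other clusters. Promoter cytosines averaged 14.2 to 19.5% in the control and 15.7 to 21.4% in the arsenic samples for Pcdha, where 29 of the 44 cytosines belong to Pcdhac1. Over the 8 samples this was 17.5%, and 10.3% with at least 30 reads at each cytosine. The other 15 averaged 26.8 to 45.2% in the control and 36.1 to 49.3% in the arsenic samples, or 37.6% over the 8 samples. They overlapped with the Pcdha exons other than those of the C genes, at 42.4%, and with the Pcdhb promoters. Pcdhg promoter cytosines averaged 13.6 to 16.7% in the control and 15.9 to 16.9% in the arsenic samples, and without the C genes 22.4% over the 8 samples. The 22 Pcdhb promoter cytosines averaged 35.9 to 42.0% and 36.1 to 41.4%. Control and arsenic samples overlapped in each of these 6 classes. The Pcdha introns (99 cytosines), the sequence between genes (226 cytosines) and the Pcdha constant exons (17 cytosines) read 73.7%, 63.6% and 71.1% over the 8 samples, and the Pcdhg introns (26 cytosines) 57.5%. The sequence between genes was thus at the level of the Pcdhb exons, at 63.5%.

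The variable exons were mostly partly methylated, and this was measured in all 3 clusters. The level of an exon over the 8 samples was between 20 and 80% in 45 of the 49 exons, or 91.8%. Among all 26040 exons of the genome tested the same way this share was 23.8%. It was 7.95% among 5675 other first exons and 33.6% among 2060 other exons of at least 2 kb in the same range of CpG density. Only the range was matched, and the median was 1.99 CpGs per 100 bases in these 2060 against 3.18 in the variable exons. Single cytosines gave a like picture. Of the 1488 variable exon cytosines 936, or 62.9%, had a level of 20 to 80%, against 23.4% of all CpGs of the series. Levels of at least 95% were found at 3 of the 1488 cytosines, whereas 9.20% of all CpGs were in that class. These shares describe the same 8 libraries and were not tested.

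**Figure D1:**
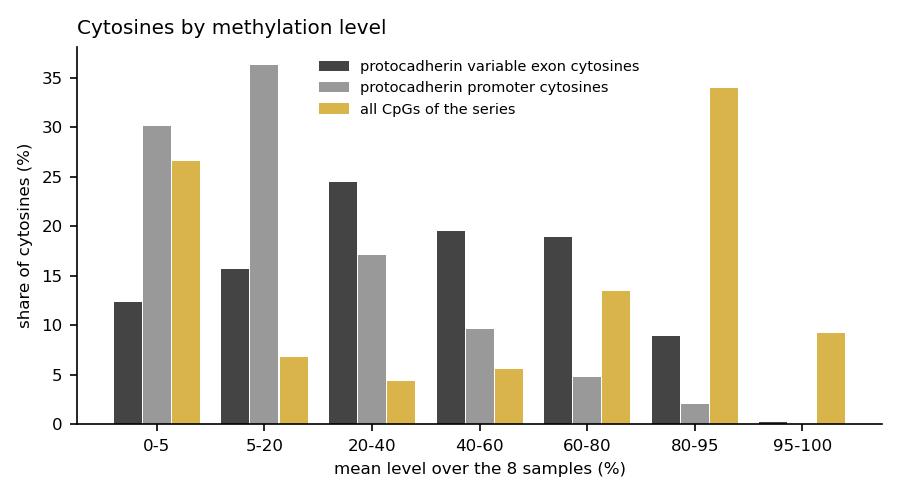
Share of cytosines (y axis, %) in 7 classes of mean methylation level over the 8 samples (x axis, %), for variable exon cytosines (dark), promoter cytosines (grey) and all CpGs of the series (yellow). Of the variable exon cytosines 24.5% lie at 20 to 40%, whereas 34.0% of all CpGs lie at 80 to 95%.

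Among the Pcdha exons the level ran from 9.77% at Pcdhac2 to 72.2% at Pcdha7, with a median of 39.7%. Pcdha7 (chr18:36973811-36976278) read 74.9, 61.0, 84.0 and 73.2% in the control and 74.2, 71.9, 73.4 and 64.8% in the arsenic samples, over 10 cytosines. Control sample 2 was the lowest and control sample 3 the highest, with the arsenic samples between them. Pcdhac2 lay under every other Pcdha exon in all 8 samples.

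Among the Pcdhb exons the median was 64.6% and none lay outside 20 to 80%. Pcdhb18 (chr18:37489465-37494503, 4 cytosines) was the highest at 78.5%, with 74.4, 65.1, 80.4 and 81.2% in the control and 86.3, 81.3, 78.4 and 80.8% in the arsenic samples. Control samples 1 and 2 were low in it and the groups overlapped. Pcdhb16 was the lowest at 41.9%. Pcdhb1, the first gene of its cluster, read 47.4, 41.2, 43.2 and 40.1% in the control and 41.1, 41.5, 47.1 and 43.8% in the arsenic samples over 27 cytosines, so that its groups overlapped as well.

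Among the Pcdhg exons the level ran from 1.53% at Pcdhgc3 to 86.8% at Pcdhga7, with a median of 38.9%. Pcdhga7 (chr18:37714834-37717374, 10 cytosines) read 85.2 to 89.0% in the control and 84.4 to 87.6% in the arsenic samples, and no other exon of the 3 clusters was above 80%. Across the 49 exons the level was lower where CpGs were denser, with Pearson's r of -0.545 and Spearman's rho of -0.522 against CpGs per 100 bases. Against exon length r was 0.352. Against the share of an exon's 50-base words that occur more than once in the whole interval r was 0.0523. That share had a median of 3.84% and reached 23.6%. These correlations are across exons of the same libraries, which are not independent replicates.

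**Figure D2:**
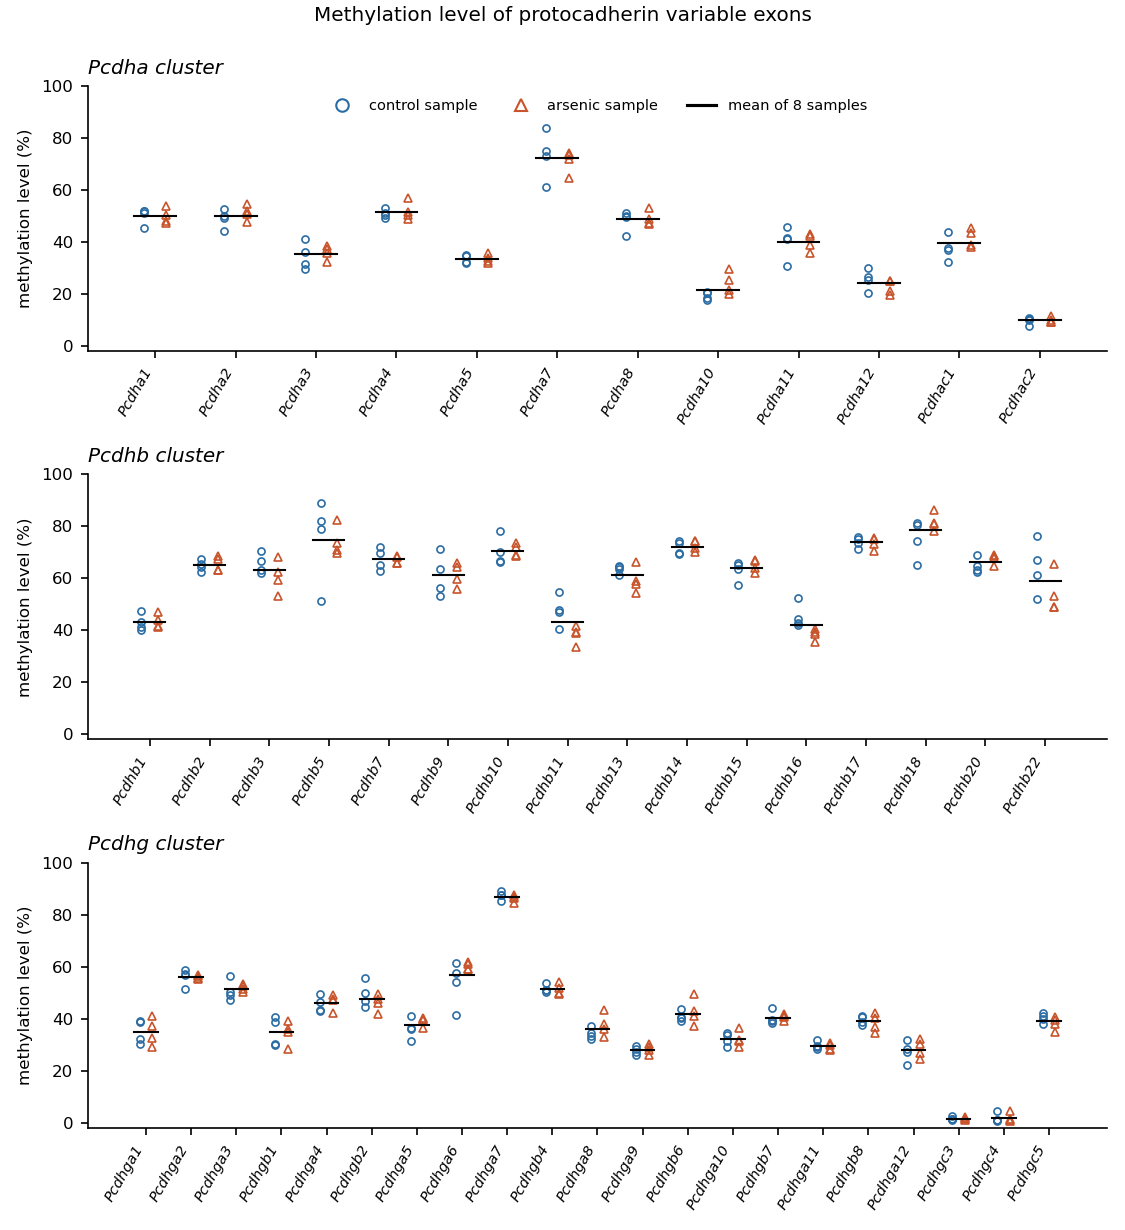
Methylation level (y axis, %) of each variable exon with at least 3 cytosines, in chromosomal order (x axis), for the 4 control samples (circles) and the 4 arsenic samples (triangles). The line is the mean of 8 samples, and it runs from 1.53% at Pcdhgc3 to 86.8% at Pcdhga7.

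Of the 5 C genes, 3 had variable exons at low levels. Pcdhgc3 (chr18:37806410-37808977) read 1.10, 1.35, 2.53 and 1.35% in the control and 1.53, 1.95, 0.824 and 1.63% in the arsenic samples over 94 cytosines. Pcdhgc4 (chr18:37815079-37817983) read 0.429, 0.986, 4.40 and 0.919% in the control and 4.55, 0.740, 0.976 and 1.43% in the arsenic samples over 33 cytosines. Pcdhac2 (chr18:37143678-37146530) read 7.79, 9.74, 10.7 and 10.4% in the control and 10.03, 9.09, 8.98 and 11.4% in the arsenic samples over 71 cytosines. All 3 exons lay below 20% in every sample. Control sample 3 and arsenic sample 1 stood above the rest at Pcdhgc4.

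The other C genes were partly methylated, at levels that moved with the minimum of reads. Pcdhac1 (chr18:37090136-37092571) read 32.2, 43.7, 36.8 and 37.7% in the control and 45.3, 38.9, 37.9 and 43.6% in the arsenic samples over 61 cytosines. Pcdhgc5 (chr18:37819546-37822134) read 42.2, 40.9, 39.8 and 38.0% in the control and 40.8, 39.6, 34.7 and 37.9% in the arsenic samples over 53 cytosines. The groups overlapped in both. The Pcdhac1 exon was at 39.5% over the 8 samples, at 28.1% with at least 20 reads at each cytosine and at 23.8% with at least 30. The Pcdhgc5 exon was at 39.2%, 37.7% and 53.3% in the same order. Without the 5 C genes the variable exons of Pcdha averaged 42.1% and those of Pcdhg 41.7% in the control group.

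Promoters of the 13 genes with at least 3 cytosines ranged from 0.749% at Pcdhgc3 to 72.2% at Pcdhb13, and 9 of the 13 lay between 20 and 80%. Over all 12145 promoters of the genome 12.5% lay there, and their median was 1.77%. Within Pcdha the highest promoter was Pcdha1 at 46.1% over 3 cytosines, read at 29.5 to 59.6% in the control and 43.2 to 52.0% in the arsenic samples. The lowest was Pcdhac1 at 7.11% over 29 cytosines, with 4.66, 4.58, 6.19 and 11.9% in the control and 6.92, 5.15, 4.66 and 12.9% in the arsenic samples. Sample 4 of each group was the highest there. Within Pcdhb the lowest was Pcdhb5 at 20.8% over 9 cytosines. Within Pcdhg the highest was Pcdhga8 at 46.7% over 5 cytosines, and Pcdhgc3 and Pcdhgc4 were at 0.749% and 2.45%. At Pcdhgc3 arsenic sample 4 read 2.81% and the other samples 0 to 1.23%, and without it the level was 0.454%. Without control sample 3 the Pcdhgc4 promoter was at 1.74%, and with at least 30 reads at 3.73%. The Pcdhac2, Pcdhgc5 and Pcdhb1 promoters had no covered cytosine.

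Methylation within the exons was lower near the start than further in. Levels of the first 500 bases and of the bases beyond could be compared in 32 genes with at least 3 cytosines in both. In 26 of them the later bases were more methylated, and in 20 this held in all 8 samples. The median difference was 14.2 points, and by cluster it was 8.85 points for 10 Pcdha genes, 13.1 points for 5 Pcdhb genes and 24.9 points for 17 Pcdhg genes. Pcdhga2, named because it had the largest difference, went from 11.7% in its first 500 bases (9.50 to 13.1% over the samples) to 82.5% beyond (74.7 to 87.6%). At Pcdhb1 the levels were 22.4% and 73.3%. Both genes thus kept their first bases below their later bases in each sample.

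The order was turned round in all 8 samples at Pcdha3, Pcdha5, Pcdhga12 and Pcdhgc5, named because they are the 4 exceptions of this kind. Pcdha3 went from 38.8% in the first 500 bases to 17.9% beyond, and Pcdhgc5 from 45.7% to 37.1%. Pcdhgc3 stayed low throughout, with 0.707% in the first 500 bases and 1.79% beyond. Pcdhac2 went from 1.14% at 250 to 500 bases to 24.5% at 1000 to 1500 bases. In Pcdhac1 the level was 5.02% before the start, 23.5% in the first 250 bases, 58.1% at 500 to 750 bases and 37.5% at 1500 to 2000 bases. Among Pcdhg genes other than the C genes it was 22.4% in the first 250 bases, 53.5% at 750 to 1000 bases and 41.5% at 1500 to 2000 bases. The level thus did not rise steadily along these exons. Bins differ in the genes they hold, and some RefSeq models begin at the start codon, so that distances are from the annotated start.

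**Figure D3:**
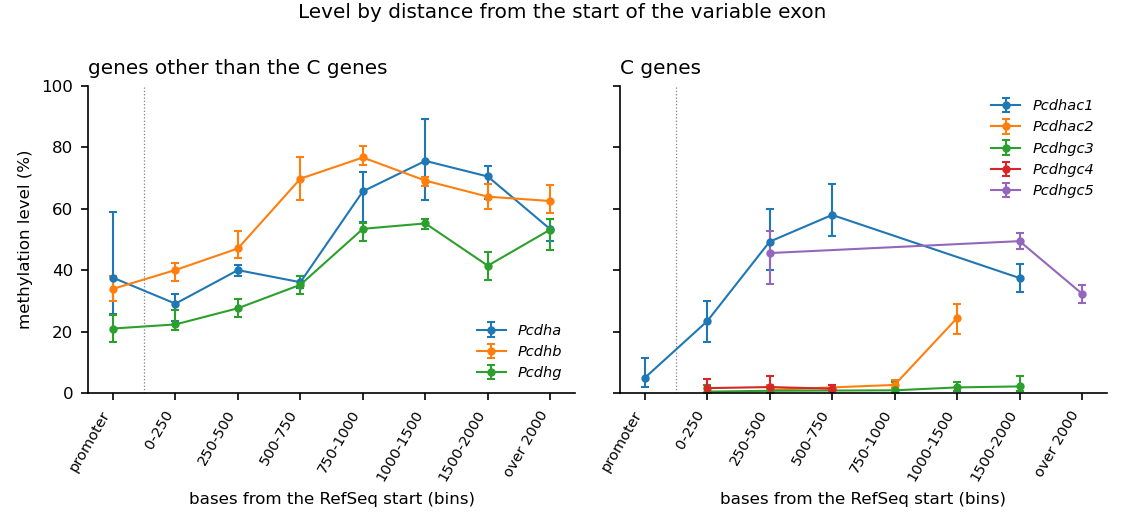
Mean methylation level (y axis, %) in bins of distance from the RefSeq start of the variable exon (x axis, bases; the promoter bin ends at the start), for bins with at least 3 cytosines. Points are means of 8 samples and bars run from the lowest to the highest sample, and among Pcdhg genes without the C genes the points go from 22.4% in the first 250 bases to 53.5% at 750 to 1000 bases and 41.5% at 1500 to 2000 bases.

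Between the control and arsenic groups no protocadherin promoter or variable exon passed q of at most 0.05 (logistic regression on summed counts with overdispersion and an F test, Benjamini-Hochberg over the genome). The lowest q was 0.859 among the 13 promoters and 0.926 among the 49 exons. No promoter and 2 exons, Pcdhb11 and Pcdhb16, had an unadjusted p under 0.05. Over the genome 0.0% of 12145 promoters and 0.0% of 26040 exons passed q of at most 0.05, and 5.14% and 4.89% had an unadjusted p under 0.05. In limma on log2 ratios no promoter or exon of the genome passed, and no protocadherin promoter or exon had an unadjusted p under 0.05. Such a p in limma was found at 5.47% of all promoters and 5.29% of all exons. These p-values measure the spread between pools.

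Among the 49 exons the arsenic mean was higher in 28 and lower in 21, with a median difference of 0.238 points and a range of -10.1 to 6.73 points. This majority rested on single samples. Without control sample 2 more exons were lower than higher and the median difference was negative, whereas without control sample 3 the majority was larger. Over all exons the median was -0.194 points and 45.0% were higher. By cluster 9 of 12 exons were higher for Pcdha, 8 of 16 for Pcdhb and 11 of 21 for Pcdhg. Of the 13 promoters 11 were higher in the arsenic group, against 47.5% of all promoters, and none of the 11 had groups that did not overlap (1.28% of all promoters were higher and 1.73% lower without overlap, 3.01% in all). This count rested in part on single samples too. The Pcdha1 and Pcdhb13 promoters, at 0.0607 and 0.133 points, turned lower in the arsenic group without control sample 4. The Pcdhac1 promoter, at 0.567 points, did so without arsenic sample 4.

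Pcdhb16 alone, or 1 of 49 exons, had groups that did not overlap, and 2.93% of all exons had groups that did not overlap. This exon (chr18:37477768-37483038, 7 cytosines) read 52.3, 44.3, 42.9 and 42.2% in the control and 40.6, 38.4, 39.2 and 35.5% in the arsenic samples. Every arsenic sample was below every control sample, and control sample 1 stood above the other 3. The difference was -7.00 points, from 45.4% ± 4.68 in the control to 38.4% ± 2.15 in the arsenic group (SD), with q = 0.926. Without control sample 1 the difference was -4.70 points, and with at least 20 reads at each cytosine the groups overlapped. An exact permutation test of a single exon with these group sizes can reach p = 0.0286 at the lowest, and this exon was named because its groups were apart. The groups overlapped at Pcdhb11, which had a difference of -9.00 points over 3 cytosines, with control sample 4 at 40.5% below arsenic sample 4 at 41.8%. Pcdhb22, named because it had the largest decrease, read 61.2, 52.0, 67.2 and 76.4% in the control and 65.4, 49.1, 53.0 and 48.8% in the arsenic samples over 6 cytosines. Pcdhga6, named because it had the largest increase, read 53.9, 41.3, 57.6 and 61.6% in the control and 61.0, 61.9, 59.1 and 59.2% in the arsenic samples over 19 cytosines. Control sample 2 was the lowest control sample in both, and the groups overlapped. The Pcdhb22 difference was -10.1 points and -6.02 points without control sample 4, and the Pcdhga6 difference was 6.73 points and 2.62 points without control sample 2.

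**Figure D4:**
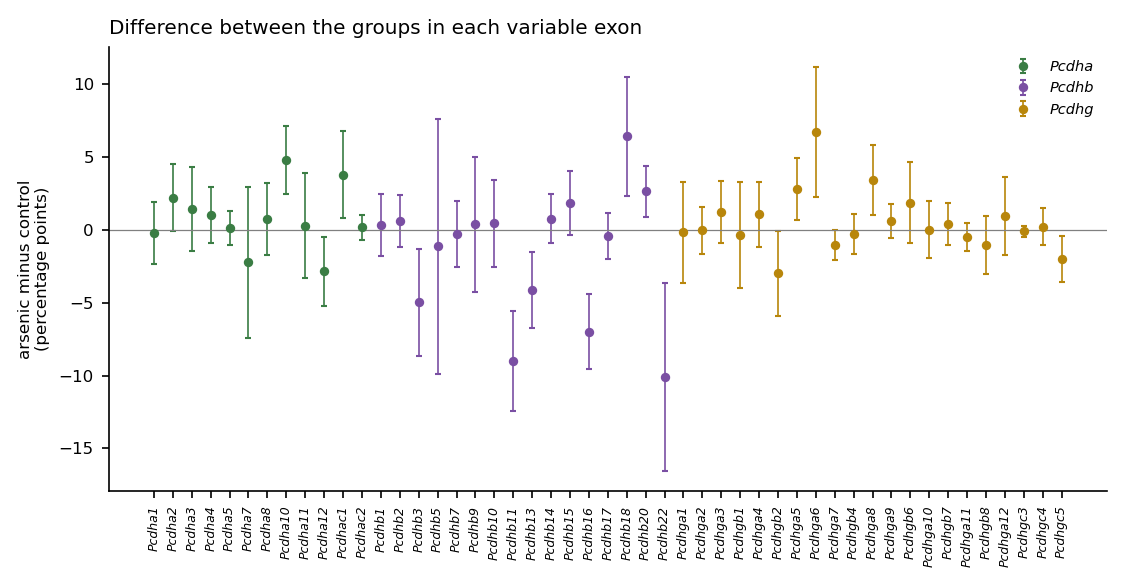
Difference between the arsenic and the control mean (y axis, percentage points) for each variable exon with at least 3 cytosines (x axis, in chromosomal order). Bars are the standard error of the difference over 4 and 4 samples, points above 0 are higher in the arsenic group, and the points run from -10.1 at Pcdhb22 (-6.02 without control sample 4) to 6.73 at Pcdhga6 (2.62 without control sample 2).

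Single differentially methylated cytosines (DMCs) were called with logistic regression, which the study's methods also use. Reads were pooled by group, and a DMC had a q of up to 0.01 and a difference of 10 points or more. Of the 2009 cytosines 5 were lower in the arsenic group (hypoDMCs, 0.249%) and 10 were higher (hyperDMCs, 0.498%). The balance rested on single samples, with 8 hypoDMCs and 6 hyperDMCs without control sample 1, 10 and 9 without control sample 4, 10 and 7 without arsenic sample 4, and 6 of each with both strands summed. Over all CpGs of the series 0.323% were hypoDMCs and 0.228% hyperDMCs, and in either direction it was 15 of the 2009 (0.747%) against 0.552%. This test takes all reads of a group as a single pool and so leaves out the spread between samples. With overdispersion scaling, and in limma on log2 ratios, none of the 15 was called. Neither was any other CpG of the series, and 96 of the 2009 cytosines (4.78%) and 5.11% of all CpGs had an unadjusted p under 0.05 in limma. With every count halved, a setting chosen after the even counts were seen, none of the 15 was called either, and 0.000704% of all CpGs were called. All arsenic samples lay below all control samples at 21 of the 2009 cytosines (1.21% of all CpGs) and above at 23 (0.892% of all CpGs).

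By class, 3 hypoDMCs and 9 hyperDMCs lay in variable exons (0.806% of 1488 cytosines), and 2 hypoDMCs and 1 hyperDMC between genes (1.33% of 226). Over all CpGs the share was 0.552%. The 146 promoter cytosines held none, and this class is too small for that to be told from the share over all CpGs. By gene, 4 hyperDMCs were in Pcdhac1, 2 in Pcdhga5 and 1 each in Pcdha3, Pcdhb1 and Pcdhga8, and 1 hypoDMC each was in Pcdha5, Pcdhb11 and Pcdhgb2. Of the 3 hypoDMCs with the largest differences, 2 lay in variable exons. Position 36960578, 302 bases into Pcdha5, read 60, 38.7, 33.3 and 57.1% in the control and 21.7, 40, 12.9 and 14.8% in the arsenic samples, a difference of -27.0 points between the pooled reads (q = 0.00616). Position 37655533, between genes, read 54.8, 45.1, 56.3 and 73.3% in the control and 40.6, 14.8, 24.5 and 45.7% in the arsenic samples, a difference of -23.9 points (q = 0.000200). The groups overlapped at both, through arsenic sample 2 at the first and arsenic sample 4 at the second. Position 37690145, 286 bases into Pcdhgb2, read 72.4, 70.7, 80 and 72.4% in the control and 48.7, 50, 63.2 and 48.1% in the arsenic samples, a difference of -23.2 points without overlap (q = 0.00813).

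The 3 hyperDMCs with the largest differences were 1 cytosine of Pcdha3 and 2 of Pcdhac1. Position 36946462, 374 bases into Pcdha3, read 32.4, 54.5, 78.4 and 44% in the control and 82.8, 70, 80.6 and 80.5% in the arsenic samples (25.9 points, q = 0.00285). Control sample 3 reached the arsenic samples. Position 37092038, 1902 bases into Pcdhac1, read 15.3, 23.1, 15.8 and 6.33% in the control and 41.7, 38.4, 23.1 and 43.8% in the arsenic samples (24.1 points, q = 7.24e-07). Position 37092025, 1889 bases into Pcdhac1, read 32.3, 52.4, 21.1 and 48.8% in the control and 61.5, 68.5, 53.6 and 58.2% in the arsenic samples (23.9 points, q = 0.00664). Control sample 2 and arsenic sample 3 had the same level at the former, and the groups did not overlap at the latter. Coverage at these 6 cytosines was 12 to 99 reads per sample.

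Of these 6 DMCs, position 37092038 in Pcdhac1 alone was called whichever sample was left out. The call at position 37655533 ended without arsenic sample 2 (q = 0.0139). Position 36946462 in Pcdha3 and position 36960578 in Pcdha5 each lost the call without control sample 1 or 4 or arsenic sample 1, 3 or 4, with q up to 0.0715 and 0.05002. Position 37092025 in Pcdhac1 lost it without control sample 1 or 3 or arsenic sample 1 or 2, with q up to 0.115, and position 37690145 in Pcdhgb2 lost it without each sample other than arsenic sample 3, with q up to 0.0384. With both strands of a CpG summed, position 36960578 differed by -16.9 points and position 37092025 by 8.95 points, and neither was called.

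In the later bases of the Pcdhac1 exon 3 of its 4 hyperDMCs lay close together, and this stretch was singled out after these values were seen. Its 15 cytosines between 1500 and 2000 bases from the start averaged 33.1, 33.3, 36.0 and 37.9% in the control and 38.8, 39.2, 39.8 and 42.2% in the arsenic samples. Every arsenic sample was above every control sample, with control sample 4 next to arsenic sample 1, and 10 of the 15 cytosines were higher in the arsenic group. The difference of 4.90 points contains the 3 hyperDMCs that led to it. All 3 were on the minus strand, and no plus-strand cytosine of the same CpGs was called. Base 1888 is the plus-strand partner of base 1889. It read 52.2, 32.0, 64.1 and 70.6% in the control and 36.6, 53.8, 35.0 and 51.5% in the arsenic samples. The arsenic mean was thus lower there, and it was higher at the other partners, bases 1866 and 1901. Whether the 3 calls share fragments was not tested. Between 250 and 1000 bases the difference was 0.913 points over 25 cytosines, and from the promoter to 250 bases it was 3.06 points over 49 cytosines, with overlapping groups in both. The former turned negative without control sample 1 (43.4%). The latter was smaller without control sample 1 (9.54%) or without arsenic sample 4 (20.2%).

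**Figure D5:**
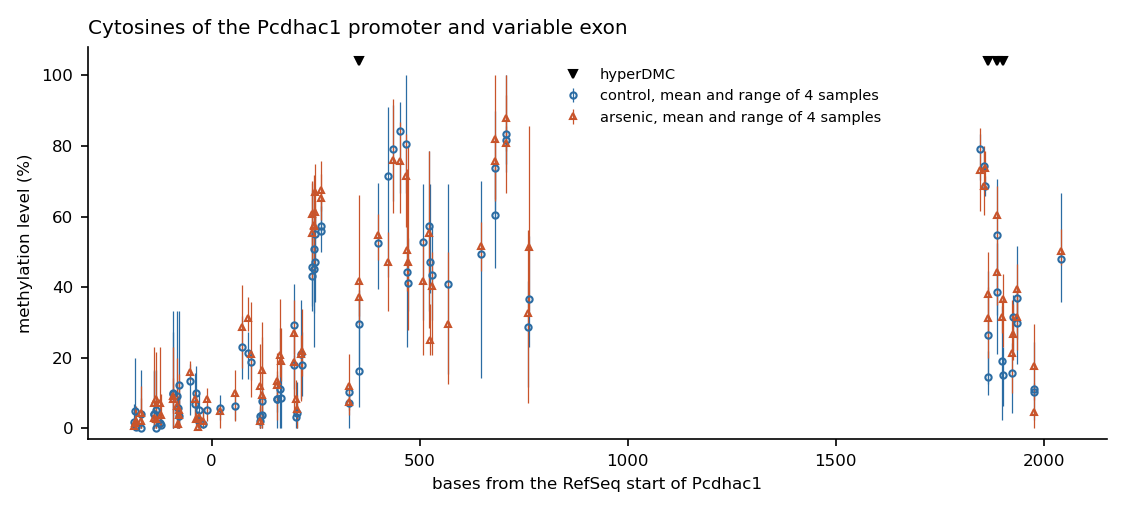
Methylation level (y axis, %) of each cytosine of the Pcdhac1 promoter and variable exon against its distance from the RefSeq start (x axis, bases), as mean and range of 4 control (circles) and 4 arsenic samples (triangles). Filled triangles on top mark the 4 hyperDMCs, of which 3, all on the minus strand, lie between 1500 and 2000 bases.

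Genes tied to the protocadherin clusters by family or regulation were read at their promoters. Non-clustered protocadherins have ordinary promoters of their own outside the clusters. Of 12 such genes 7 were covered, all with levels from 0.678% at Pcdh10 to 2.15% at Pcdh1, below each protocadherin promoter of the clusters except Pcdhgc3. For Pcdhgc4 this rested on control sample 3, without which its promoter was at 1.74% and below that of Pcdh18. Of 22 regulators of the clusters 18 were covered, and 15 of these lay below 20%. Ctcf, which encodes the insulator protein, read 1.09%, Rad21 of cohesin 1.12%, Nipbl of the cohesin loader 0.375% and Smchd1, a repressor of the clusters, 1.92%. The 3 others were Smc3 of cohesin at 21.8%, Dnmt3l, a cofactor of de novo methylation, at 77.4%, and Ctcfl, the germ line relative of Ctcf, at 80.4%. No regulator promoter passed q of at most 0.05 in either direction, and 3 of 18 had an unadjusted p under 0.05, against 5.14% of all promoters. The groups did not overlap at 1 of the 18, against 3.01% of all promoters (1.28% higher in the arsenic group). This was Trim28, a corepressor gene with 3 covered cytosines, with 0% in each control sample and 1.67, 1.85, 7.21 and 1.96% in the arsenic samples (q = 0.849). None of the 7 non-clustered protocadherin promoters and none of the 2 covered promoters of 3 signalling genes whose proteins bind clustered protocadherins (Ptk2b at 2.08% and Ret at 1.30%) passed it.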

How the data were processed

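RRBS libraries of 4 control and 4 arsenic samples were made, mapped and joined by the authors, with Trim Galore 0.6.5, Bismark 0.22.3 against mm10 and methylKit 1.22.0 in the submitters' processing notes. The deposited values are counts of reads, of reads with a C and of reads with a T at each cytosine, not normalized, with each strand separate and at least 10 reads in all 8 samples. Mapping a C3H strain to mm10 reads a C-to-T difference of the strain as unmethylated, and exons that resemble each other can exchange reads. A single cytosine rests on 31 to 44 reads at the median, so its level has a wide counting error.

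Cytosines were assigned with RefSeq on GRCm38, in the order promoter, variable exon, constant exon, intron, other gene and between genes. Averages are unweighted means over cytosines. Members, lists and tests were chosen with earlier results of these data known. Named were the highest and lowest level in each cluster, for promoters and exons apart, the C genes, Pcdhb1, up to 3 promoters or exons of each direction without overlap, and the 3 hypoDMCs and 3 hyperDMCs with the largest differences. Others were named after their values were seen, as the text says. methylKit was not run, and its test was computed as a likelihood-ratio test on pooled counts with Benjamini-Hochberg q over all CpGs. Promoters and exons with at least 3 cytosines were tested over the genome by logistic regression with overdispersion and an F test, and with limma 3.58.1 in R 4.3.3 on log2 ratios with a pseudocount of 1. Other steps ran in Python 3.11.15 with pandas 2.3.3, scipy 1.17.1, matplotlib 3.10.9 and numpy 2.4.6, and the tests were tested on simulated data. The chi-square per cytosine between samples was 1.99 to 2.44 within groups and 1.99 to 2.29 between them, and no samples of a group had identical counts. Given the even counts, spread beyond sampling noise is not shown by this. Deviations of same-numbered samples correlated within the range of the other pairs. The smallest two-sided exact permutation p with 70 assignments is 0.0286. Alternatives were coverage of at least 20 or 30, pooled reads, both strands summed, a promoter from 250 bases before to 50 after the start, other tests and each sample left out. Prospermatogonia were not analysed here.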

Additional observations from a re-analysis of the deposited data

Results flagged for a closer look

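In 60 groups of 4 samples a single sample stood far from the other 3 in 2 cases, and chance alone gives about 3. At the Pcdhgc4 variable exon control sample 3 read 4.40%, whereas the other control samples read 0.429 to 0.986%. At position 37690145 in Pcdhgb2 arsenic sample 3 read 63.2%, and the other arsenic samples 48.1 to 50%.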

How the results depend on the processing

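With at least 20 reads the average level was 31.1% in Pcdhb promoters, 61.99% in Pcdhb exons, 17.1% in Pcdhg promoters and 37.4% in Pcdhg exons, and 0 exons were without overlap and lower. With at least 30 reads it was 46.9% over all members, 10.3% in Pcdha, 29.1% in Pcdhb and 18.02% in Pcdhg promoters and 39.5% in Pcdhg exons. The Pcdhg promoter difference was then 0.262 points, and 0 exons were lower and 1 exon higher without overlap. No share of all exons without overlap is given for these minimums. At least 30 reads left 5 hypoDMCs and 6 hyperDMCs, or 1.45% of the members against 0.835% of all CpGs. Pooled reads gave 46.8% over all members, 34.6% in Pcdhb promoters with a difference of 3.19 points, 64.7% in Pcdhb and 41.0% in Pcdhg exons. Both strands summed gave 44.8%, 6 hypoDMCs and 6 hyperDMCs, or 0.877% of the 1369 members against 0.432% of all CpGs. The exon levels of Pcdhac1 and Pcdhgc5 were 28.1% and 37.7% with at least 20 reads, 23.8% and 53.3% with at least 30, and 31.4% and 43.3% for pooled reads. The shorter promoter gave 11.7% for Pcdha and 10.9% for Pcdhg. A difference of at least 20 points left 4 hypoDMCs and 6 hyperDMCs, or 0.498% of the members against 0.147% of all CpGs. Overdispersion scaling, limma and halved counts each gave 0 hypoDMCs and 0 hyperDMCs, and over all CpGs they called none, none and 0.000704%. The cause of these shifts was not tested, and fewer cytosines were read under the stricter minimums.

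The replicate number used as a block (Cochran-Mantel-Haenszel test) gave 4 hypoDMCs and 5 hyperDMCs (0.448% of the members, against 0.377% of all CpGs), and no promoter or exon passed with the block. Deviations of same-numbered samples over single CpGs had a correlation of -0.0000781 to 0.00178, and those of other pairs -0.00234 to 0.00245. A level at 1 CpG has a wide counting error, so these values cannot tell whether the numbers pair the samples.

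Leaving out each sample gave a difference of 0.235 to 0.918 points for the average level over all members, and pooled reads gave 0.168 points. It also gave 3 to 10 hypoDMCs and 6 to 14 hyperDMCs. In either direction this was 0.548 to 1.05% of the members, against 0.541 to 0.615% of all CpGs. HypoDMCs and hyperDMCs numbered 8 and 6 without control sample 1, 10 and 9 without control sample 4, 10 and 7 without arsenic sample 4, and 3 and 8 without arsenic sample 1, so which of them was more frequent changed with the sample left out. The count of exons without overlap ranged from 1 to 3 lower and from 0 to 1 higher, and that of promoters from 0 to 1 in each direction. With 1 sample left out fewer samples have to lie apart. No share over all exons or promoters is given for these group sizes, so nothing is read from these counts.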
